A study of Mus musculus with 16 samples.

Results

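Interferon-stimulated genes are genes that cells switch on when an interferon reaches their surface. The list described here names 46 of them in the mouse, chosen by gene symbol as known interferon-induced genes and matched to Ensembl identifiers through the GRCm38 annotation. This list and the other gene lists used below were chosen with earlier results of these data known. All 46 were among the 49671 genes in the count tables, all 46 had at least 10 counts summed over the 16 libraries, and all 46 were among the 18875 genes tested.

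Interferons are secreted proteins that bind paired receptors, and the receptors activate the JAK kinases. These phosphorylate STAT proteins, STAT2 among them, which join IRF9 on a DNA motif in the promoters of the induced genes, while IRF7, itself induced, drives more interferon. The induced proteins block virus entry, degrade or sequester foreign RNA, tag proteins with the ubiquitin-like ISG15 and restrain intracellular microbes. In the brain, microglia and endothelium are among the cells known to make them.

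Brains of C57BL/6 mice were taken on postnatal day 32 and the RNA of each whole brain was sequenced as a library of its own, for 4 groups of 4 mice. Every dam received an intraperitoneal injection on gestation day 16, and every offspring, stated to be male, received another on postnatal day 30. In the saline-saline group both injections were saline, in LPS-saline only the dam's held lipopolysaccharide (LPS, from the wall of Gram-negative bacteria), in saline-LPS only the offspring's did, and in LPS-LPS both did. The dam's injection is read here as the first word of each name, an order that the labels do not spell out, and if it were the reverse then prenatal and pubertal would swap. The labels do not name the litters, so mice of 1 group may share a dam, and each p-value rests on variation among the individual animals.

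Libraries held 25729919 to 38571036 gene counts, so that 1 read stood for at most 0.0389 counts per 1000000 gene counts (CPM). Gabra6, a cerebellar granule cell gene, lay under 1 CPM in 8 libraries spread over all 4 groups and at 2.51 to 70.4 CPM in the others. LPS-LPS replicate 3 carried Xist, which is transcribed from an inactivated X, at 503 CPM although its mouse was described as male, and LPS-LPS replicate 1 carried the pituitary hormone Gh at 502.5 CPM. Results that rest on LPS-LPS replicates 1 and 3 are given with and without them. Gh was next highest in saline-LPS replicate 1, at 44.1 CPM, and at most 2.58 CPM in the remaining libraries. In whole tissue, fewer cells of a type and less RNA per cell cannot be told apart.

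Prenatal LPS was the arm in which members moved, and every member that passed the test was higher after it. In the averaged comparison, in which the 8 mice of LPS-injected dams were set against the 8 mice of saline-injected dams, 12 of 46 members rose and 0 fell (edgeR quasi-likelihood test, Benjamini-Hochberg adjusted p under 0.05), where 4.9% of all tested genes rose and 2.92% fell. Before pubertal saline 4 members rose and 0 fell (0.148% and 0.0318% of all genes), with 11 members at an unadjusted p under 0.05 (13.2%). Before pubertal LPS 4 rose and 0 fell (0.562% and 0.0477%), with 12 at an unadjusted p under 0.05 (14%), and on average 16 were (23.2%). The pubertal arm was flat in the test: 0 members passed after prenatal saline, after prenatal LPS or averaged over both, and 0% of all genes did. The median log2 fold change of the 46 members was 0.22 and 0.19 in the 2 prenatal comparisons and 0.04 and 0.04 in the 2 pubertal ones, beside medians of -0.00, -0.01, 0.00 and -0.00 over all tested genes. Log2 fold changes above 0 were found for 40 members before pubertal saline (49.3% of all genes), 35 before pubertal LPS (48.4%) and 40 on average (48.3%), against 27 (51%), 26 (49.3%) and 27 (50.6%) in the pubertal comparisons after prenatal saline, after prenatal LPS and averaged.

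**Figure D1:**
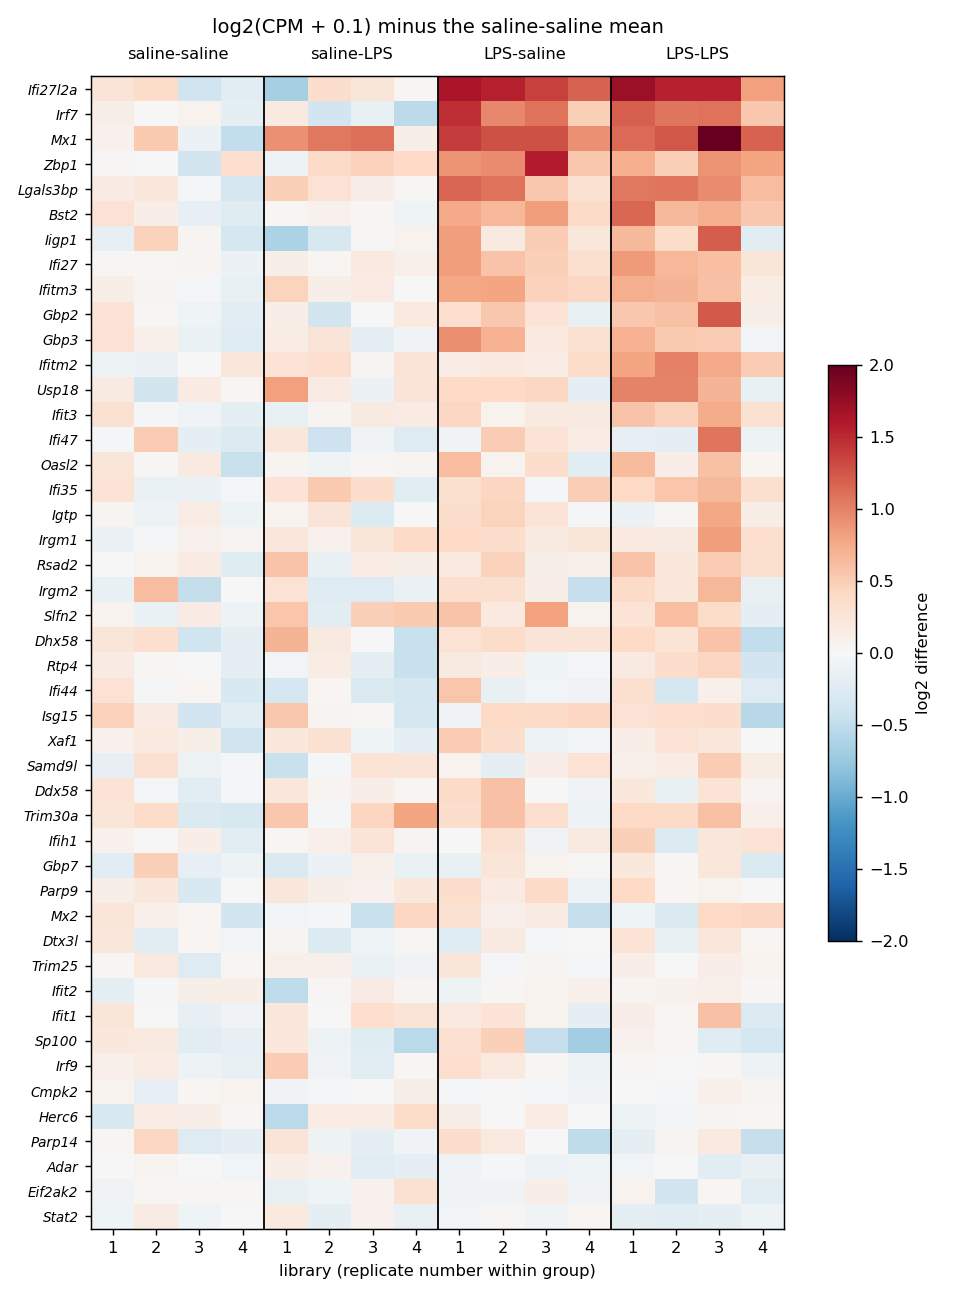
Each row is 1 member and each column 1 library, with colour giving log2(CPM + 0.1) minus the mean of the 4 saline-saline libraries. Genes are ordered by their averaged prenatal log2 fold change, from Ifi27l2a (1.50) to Stat2 (-0.09). In the 8 columns of LPS-saline and LPS-LPS, red is seen for Ifi27l2a, Irf7, Mx1, Zbp1, Lgals3bp and Bst2. The mean of Mx1 in saline-LPS also lies above that in saline-saline.

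The motif that interferon-activated factors are known to bind was looked for in the members' promoters, in those that rose and in those that did not. The core searched was GAAANNGAAA, on both strands and with overlapping matches allowed, in RefSeq windows (build GRCm38.p6) from 250 bases before to 50 bases after each start. It was present in 18 of the 35 members with a window (51.4%), and in 483 of the 13030 tested genes with one (3.71%). Of 7 members with a window that rose in the averaged prenatal comparison 5 held it (71.4%), against 13 of 28 that did not pass (46.4%). The other members that rose, Ifi27l2a, Ifi27, Mx1, Zbp1 and Iigp1, had no window and were not searched. The 71.4% therefore does not describe all members that rose. A match is a description of letters and not a measured binding site. Stretches from 160 to 21 bases before the start are printed for 3 members that rose (Bst2, Ifit3 and Gbp3) and 2 that did not pass (Isg15 and Ifit1), each 5′ to 3′ on the gene's strand with the matches in capitals, so that the letters can be set beside the levels given further on. Where a match reads TTTCNNTTTC the core lies on the opposite strand. Bst2 (chr8:71537493-71537632, minus strand), Ifit3 (chr19:34583369-34583508, plus strand), Gbp3 (chr3:142559884-142560023, plus strand, the first of its 2 windows), Isg15 (chr4:156200839-156200978, minus strand) and Ifit1 (chr19:34640729-34640868, plus strand) read as follows.
Bst2: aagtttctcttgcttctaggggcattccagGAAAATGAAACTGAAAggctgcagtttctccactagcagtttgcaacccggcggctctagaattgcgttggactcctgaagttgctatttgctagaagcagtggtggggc
Ifit3: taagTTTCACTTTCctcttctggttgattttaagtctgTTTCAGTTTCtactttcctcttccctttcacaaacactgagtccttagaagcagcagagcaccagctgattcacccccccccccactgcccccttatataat
Gbp3: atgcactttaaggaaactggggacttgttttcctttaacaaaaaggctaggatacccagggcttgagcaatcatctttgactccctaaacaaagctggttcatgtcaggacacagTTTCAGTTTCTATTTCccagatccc
Isg15: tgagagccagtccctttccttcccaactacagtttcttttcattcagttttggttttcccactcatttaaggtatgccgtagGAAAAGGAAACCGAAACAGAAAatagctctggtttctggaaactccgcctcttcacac
Ifit1: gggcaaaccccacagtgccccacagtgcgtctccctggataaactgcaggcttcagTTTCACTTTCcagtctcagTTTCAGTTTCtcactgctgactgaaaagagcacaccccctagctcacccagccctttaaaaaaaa
Isg15 holds 3 overlapping matches in this stretch and Ifit1 holds 2 separate ones, the same number as Bst2, Ifit3 and Gbp3. The windows of Irf7 and Lgals3bp, both of which rose, hold none of these letters.

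Upstream of the members, the interferons themselves were at the edge of detection. Of 11 listed interferon genes 6 had 0 counts in all 16 libraries, and the 11 together had 25 counts in all libraries, 12 of them Ifnk, an epithelial type I interferon. Ifnb1, the first type I interferon made by most cells, had 1 count in 1 library. Only Ifnk had at least 10 counts summed over the libraries. None of the 11 was among the 18875 genes tested, so no change in them was tested in the reported fit.

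Of 18 genes of interferon signalling (receptors, JAK and STAT genes, IRF factors with a cofactor, and feedback regulators), all tested, 1 rose in the averaged prenatal comparison, a share near the 4.9% of all genes that rose. It was Irf2bp1, a corepressor of IRF2, by 0.24 ± 0.05 (SE) on the log2 scale (adjusted p = 0.0104). Ifnar1, a subunit of the type I interferon receptor, had a log2 fold change of -0.01 ± 0.05 (adjusted p = 0.936). Irf1, a rapid interferon-gamma target, was at 0.24 ± 0.11 (adjusted p = 0.213). Among 16 tested genes of microbial sensing, from receptors and adaptors to the IRF factors downstream, 1 rose, which is also near that share: Irf8, a transcription factor of myeloid cells, by 0.35 ± 0.10 (adjusted p = 0.036).

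Irf7 was the only one of the 3 signalling transcription factors to rise. Irf7 (ENSMUSG00000025498, chromosome 7, 141262706 to 141266481, minus strand) stood at 2.67, 2.48, 2.61 and 2.15 CPM in saline-saline and at 7.02, 4.92, 5.33 and 3.48 CPM in LPS-saline. With pubertal LPS it stood at 2.81, 1.88, 2.21 and 1.69 CPM after prenatal saline and at 5.80, 5.27, 5.38 and 3.64 CPM after prenatal LPS. All 8 libraries of LPS-injected dams lay above all 8 of saline-injected dams, and replicate 4 was the lowest in each of the 4 groups. Irf7 was 2.09-fold higher before pubertal saline (log2 1.07 ± 0.19, adjusted p = 0.0258), 2.33-fold higher before pubertal LPS (log2 1.22 ± 0.20, adjusted p = 0.00522) and 2.21-fold higher on average (log2 1.14 ± 0.14, adjusted p = 8.41e-05). When each library was left out in turn, Irf7 passed before pubertal saline in 10 of 16 fits (edgeR, largest adjusted p = 0.160). That call was lost without any 1 of the saline-saline libraries or without LPS-saline replicate 1 or 3. The calls before pubertal LPS and on average held in all 16. Its exons share 45 bases with Phrf1 on the other strand, a gene with 29925 counts in all libraries against 1906 for Irf7, and the strand setting of the counting is not given in the sources used here.

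The other 2 signalling transcription factors did not pass. Stat2, the more abundant of them per kilobase, ranged from 27.3 to 35.5 CPM in the 8 saline-injected-dam libraries and from 26.7 to 31.7 CPM in the other 8 (averaged log2 -0.09 ± 0.06, adjusted p = 0.348). Irf9, the DNA-binding partner, had an averaged log2 fold change of 0.00 ± 0.09 (adjusted p = 0.985), with a 95% interval from -0.18 to 0.19.

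The small membrane proteins formed the role in which most members rose: 4 of 5 in the averaged comparison, and all 5 when both injections were set against none. After the correction for GC content and exonic length Ifitm2 and Ifitm3 no longer passed with both injections against none (adjusted p = 0.0545 and 0.0668), which left 3 of 5. Ifi27l2a, a mitochondrial protein of the ISG12 family (ENSMUSG00000079017, chromosome 12, 103442167 to 103443680, minus strand), stood at 1.15, 1.25, 0.693 and 0.803 CPM in saline-saline and at 3.15, 2.98, 2.59 and 2.28 CPM in LPS-saline. In the pubertal LPS groups it stood at 0.563, 1.24, 1.14 and 0.981 CPM after prenatal saline and at 3.36, 2.96, 2.94 and 1.75 CPM after prenatal LPS. The groups of LPS-injected dams did not overlap those of saline-injected dams, and the 2 group means after prenatal LPS, 2.75 ± 0.392 and 2.76 ± 0.695 CPM (SD, n = 4), differed by less than their spread. The rise was 2.82-fold before pubertal saline (log2 1.49 ± 0.24, adjusted p = 0.00637) and 2.83-fold before pubertal LPS (log2 1.50 ± 0.24, adjusted p = 0.00522), and Ifi27l2a had the largest averaged log2 fold change of all members (1.50 ± 0.17, adjusted p = 3.42e-05).

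Ifi27, its neighbour on chromosome 12 (ENSMUSG00000064215, 103434211 to 103440239, plus strand), another ISG12 protein, stood at 22.3, 22.5, 22.7 and 20.2 CPM in saline-saline, 39.2, 32.6, 30.5 and 27.2 CPM in LPS-saline, then 23.7, 22.5, 25.0 and 23.4 CPM in saline-LPS and 39.5, 34.7, 33.3 and 25.9 CPM in LPS-LPS. The saline-injected-dam libraries lay close together and below all 8 others. Ifi27 rose by 0.56 ± 0.11 before pubertal saline (adjusted p = 0.0365) and by 0.50 ± 0.11 before pubertal LPS (adjusted p = 0.0394) on the log2 scale. Both calls were close to the threshold: leaving out 1 library at a time, Ifi27 passed in 7 of 16 fits before pubertal saline and in 4 of 16 before pubertal LPS, and neither passed after the correction for GC content and exonic length (adjusted p = 0.0582 and 0.0888). With the replicate number as a block both passed (adjusted p = 0.00103 and 0.00391), and the averaged rise of 0.53 ± 0.08 passed in all 16.

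Bst2, or tetherin, which holds budding virus at the cell surface (ENSMUSG00000046718, chromosome 8, 71534255 to 71537456, minus strand), stood at 4.76, 4.24, 3.44 and 3.24 CPM in saline-saline and at 6.61, 6.17, 6.99 and 5.06 CPM in LPS-saline. With pubertal LPS it stood at 4.00, 4.13, 3.99 and 3.65 CPM after prenatal saline and at 8.75, 6.16, 6.45 and 5.66 CPM after prenatal LPS. Again the 8 libraries of LPS-injected dams lay above the other 8, with LPS-LPS replicate 1 the highest. Bst2 rose by 0.78 ± 0.15 before pubertal LPS (adjusted p = 0.0179), and its value of 0.66 ± 0.15 before pubertal saline did not pass (adjusted p = 0.0624) unless the replicate number was a block (0.67, adjusted p = 0.00856).

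Ifitm3, which blocks fusion of viruses in endosomes (ENSMUSG00000025492, chromosome 7, 141009586 to 141010770, minus strand), stood at 11.0, 10.5, 9.96 and 9.09 CPM in saline-saline, at 17.3, 17.6, 14.0 and 13.4 CPM in LPS-saline, then at 13.8, 11.0, 11.3 and 10.2 CPM in saline-LPS and at 16.8, 16.3, 15.2 and 11.2 CPM in LPS-LPS. The groups did not overlap before pubertal saline, while before pubertal LPS the lowest LPS-LPS library lay within the saline-LPS range. Ifitm3 rose by 0.62 ± 0.12 before pubertal saline (adjusted p = 0.0401). That call held in 4 of the 16 fits that left out 1 library (edgeR, largest adjusted p = 0.216). After the correction for GC content and exonic length it was lost (adjusted p = 0.0843). The 0.36 ± 0.12 of Ifitm3 before pubertal LPS did not pass (adjusted p = 0.184) unless the replicate number was a block (0.35, adjusted p = 0.0322). The interaction for Ifitm3 was -0.26 ± 0.17 and for Bst2 0.11 ± 0.21 on the log2 scale (adjusted p = 0.9998 for both, edgeR), so neither gene was shown to differ between the 2 prenatal comparisons.

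Ifitm2, the paralog of Ifitm3, passed only when both injections were set against none, at 1.41 ± 0.213 CPM in LPS-LPS and 0.787 ± 0.101 CPM in saline-saline (SD, n = 4; log2 0.85 ± 0.19, adjusted p = 0.0119). Its 4 LPS-LPS libraries, at 1.43, 1.68, 1.39 and 1.16 CPM, lay above every library of the other 3 groups, whose highest was 1.04 CPM. The averaged prenatal and averaged pubertal values for Ifitm2, 0.41 ± 0.13 (adjusted p = 0.0604) and 0.43 ± 0.13 (adjusted p = 0.908), did not pass.

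**Figure D2:**
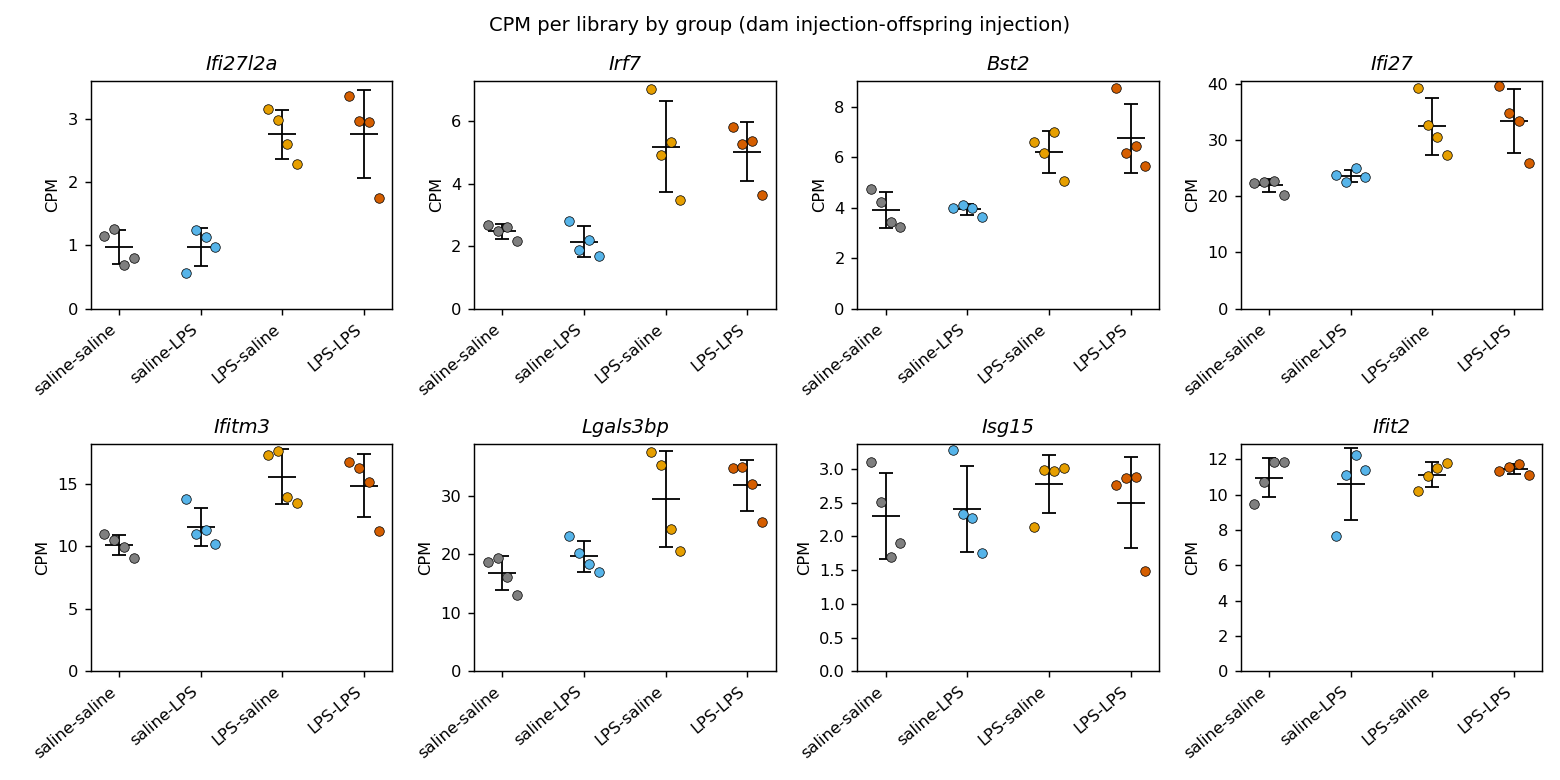
Each panel is 1 gene, each point 1 library in CPM on a linear axis from 0, and the bars are mean ± SD of the 4 libraries of a group. In Ifi27l2a, Irf7, Bst2 and Ifi27 the 8 libraries with a prenatal LPS injection sit above the 8 without, in Ifitm3 and Lgals3bp 1 or more overlap, and in Isg15 and Ifit2 all 4 groups overlap.

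Of 11 antiviral effectors 2 rose in the averaged comparison. Mx1, a dynamin-like GTPase that carries a disabling deletion in most inbred strains, was at 0.707 ± 0.20 CPM after prenatal LPS and 0.352 ± 0.177 CPM after prenatal saline (SD, n = 8), which is 2.13-fold higher (log2 1.09 ± 0.24, adjusted p = 0.0089). The Mx1 libraries of saline-injected dams ran from 0.129 to 0.585 CPM and those of LPS-injected dams from 0.502 to 1.17 CPM, a small overlap. Ifit3, which binds foreign RNA together with Ifit1, was at 9.49 ± 1.54 against 7.48 ± 0.921 CPM (log2 0.33 ± 0.08, adjusted p = 0.0209). Ifit3 has a near-identical copy, Ifit3b, so its counts are uncertain.

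The other 9 effectors did not pass in any comparison, and their averaged prenatal log2 fold changes ran from -0.09 (Eif2ak2, the RNA-activated kinase PKR) to 0.30 (Oasl2, an OAS-like protein). Adar, the RNA-editing enzyme and the most abundant member per kilobase, was at 140 to 180 CPM in the libraries of saline-injected dams and at 141 to 164 CPM in the others (log2 -0.07 ± 0.05, adjusted p = 0.449). Ifit1, with a pair of motif matches in the stretch printed above, had log2 0.02 ± 0.12 (adjusted p = 0.955) and a 95% interval from -0.23 to 0.26. Exons of Adar share 1365 bases with Chrnb2, which had 41110 counts against 81606 for Adar. Ifit2, Rsad2, Cmpk2, Mx2 and Samd9l make up the rest.

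None of the 4 members in the role of ISG15 conjugation passed in any comparison. Ube2l6, the ISG15-conjugating enzyme, is not a member and rose in the averaged prenatal comparison (0.29 on the log2 scale), as given further on. Isg15, the ubiquitin-like modifier itself, stood at 3.10, 2.51, 1.69 and 1.90 CPM in saline-saline, 2.14, 2.98, 2.96 and 3.01 CPM in LPS-saline, then 3.28, 2.33, 2.27 and 1.75 CPM in saline-LPS and 2.76, 2.86, 2.88 and 1.49 CPM in LPS-LPS. The groups overlapped in both prenatal comparisons, with the highest library in saline-LPS and the lowest in LPS-LPS. Its averaged prenatal log2 fold change was 0.16 ± 0.16 (adjusted p = 0.602). Usp18, the protease that removes ISG15, had the smallest p of this role (log2 0.34 ± 0.18, adjusted p = 0.277), and Trim25 and Herc6, both ligases, were at 0.07 and -0.01.

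Of 4 nucleic acid sensors, Zbp1, which senses Z-form nucleic acid, rose on average, from 0.246 ± 0.0677 to 0.472 ± 0.152 CPM (SD, n = 8; log2 0.95 ± 0.24, adjusted p = 0.0205). Its lowest library after prenatal LPS, 0.329 CPM, was just above its highest after prenatal saline, 0.325 CPM, and Zbp1 rests on 185 counts in all libraries. The RIG-I-like receptors did not pass: Ddx58 (RIG-I) was at log2 0.12 ± 0.10, Ifih1 (MDA5) at 0.10 ± 0.10 and Dhx58 (LGP2) at 0.18 ± 0.17 (adjusted p = 0.55, 0.617 and 0.585).

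Of 8 interferon-inducible GTPases, which act on vacuoles holding microbes, 3 rose on average and all 8 had a log2 fold change above 0. Gbp3 rose by 0.48 ± 0.12 (6.28 ± 1.35 against 4.50 ± 0.662 CPM, SD, n = 8; adjusted p = 0.0236), Iigp1 by 0.64 ± 0.19 (2.44 ± 0.797 against 1.57 ± 0.395 CPM; adjusted p = 0.0429) and Gbp2 by 0.48 ± 0.15 (2.99 ± 0.952 against 2.12 ± 0.318 CPM). The adjusted p of Gbp2 was 0.049996, at the threshold. In all 3 the 2 sets of 8 libraries overlapped. Igtp, the most abundant GTPase per kilobase, had log2 0.25 ± 0.12 (adjusted p = 0.223), and its exons share 162 bases with Irgm2 on the same strand. Gbp7, Irgm1, Irgm2 and Ifi47 did not pass, with values from 0.10 to 0.33.

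Among the 11 remaining members 1 rose. Lgals3bp, a secreted galectin-binding glycoprotein, stood at 18.7, 19.3, 16.1 and 13.1 CPM in saline-saline, 37.4, 35.2, 24.3 and 20.6 CPM in LPS-saline, then 23.1, 20.2, 18.3 and 16.9 CPM in saline-LPS and 34.8, 34.8, 31.9 and 25.5 CPM in LPS-LPS. The groups did not overlap within either pubertal injection, and LPS-saline spread most. It was 1.68-fold higher on average (log2 0.75 ± 0.13, adjusted p = 0.00389), while 0.81 ± 0.18 before pubertal saline and 0.69 ± 0.18 before pubertal LPS did not pass (adjusted p = 0.0663 and 0.106). The ADP-ribosylation genes Parp9, Parp14 and Dtx3l, the nuclear body gene Sp100, and Trim30a, Ifi35, Ifi44, Rtp4, Xaf1 and Slfn2 had averaged values from -0.02 (Parp14) to 0.29 (Ifi35). Parp9 and Dtx3l share 458 exonic bases, so reads there cannot be assigned without strand.

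**Figure D3:**
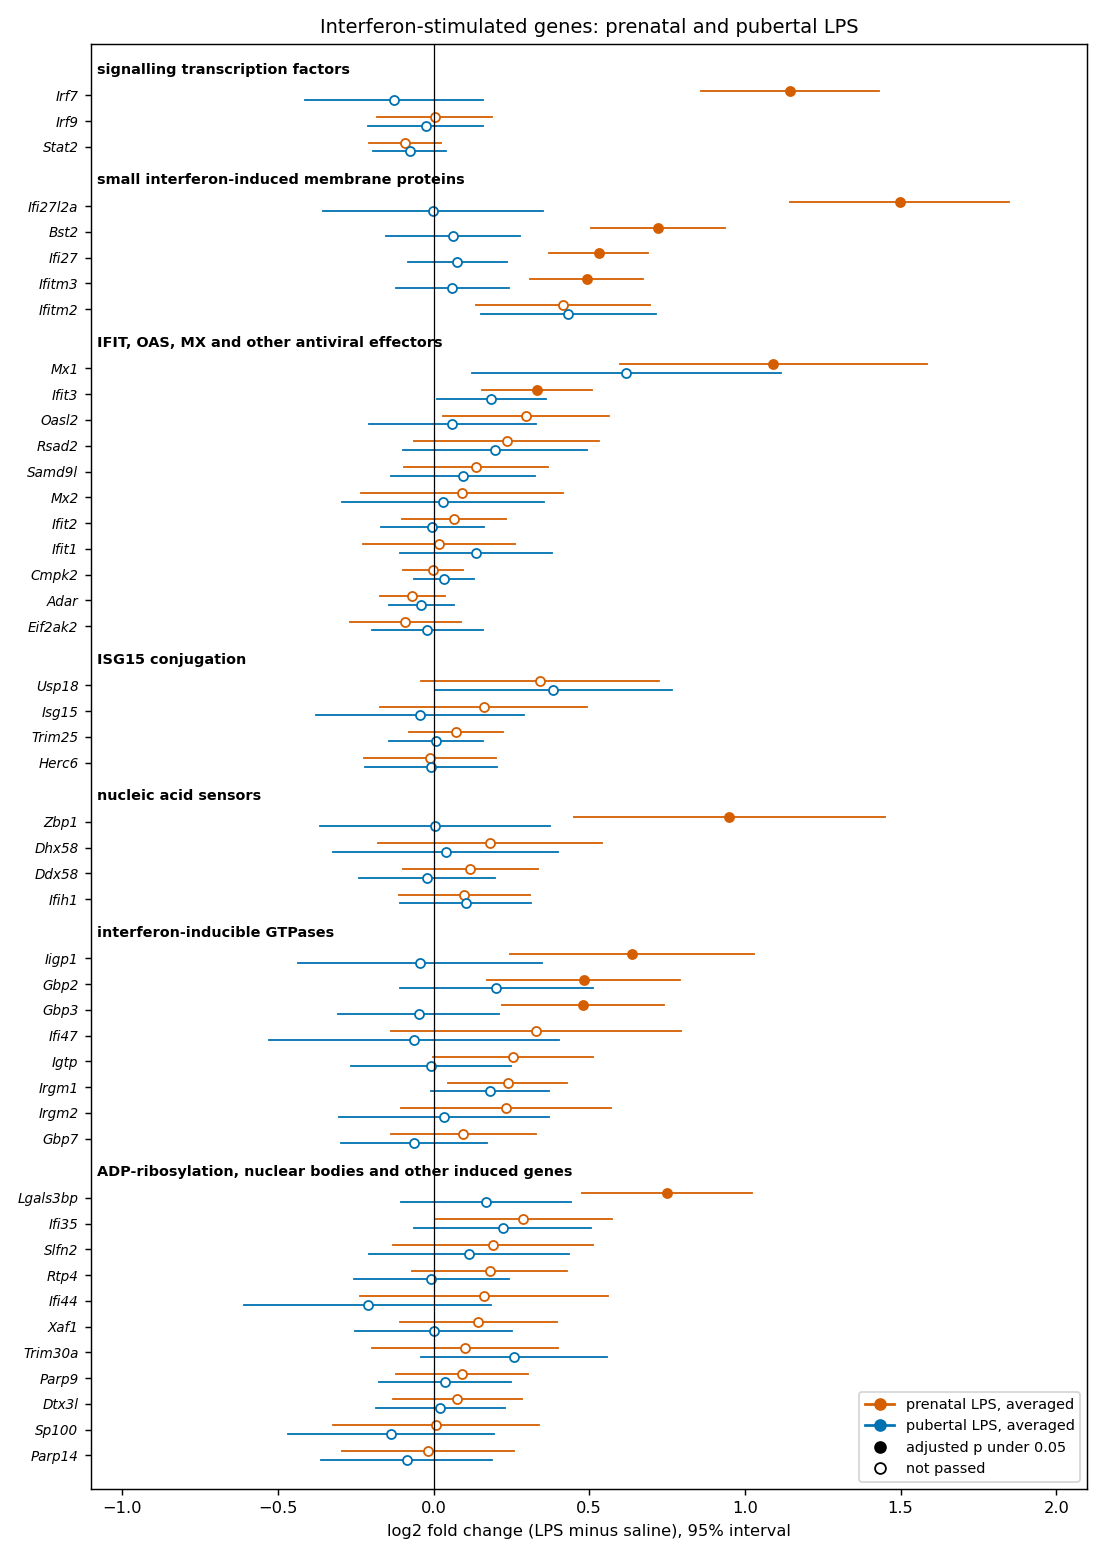
Points are averaged log2 fold changes of the 46 members with 95% intervals, prenatal LPS in orange and pubertal LPS in blue, filled where the adjusted p was under 0.05. The 12 filled points are all orange, lie between 0.33 (Ifit3) and 1.50 (Ifi27l2a) and include 4 of the 5 small membrane proteins, while no pubertal point is filled.

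Other interferon-induced genes outside the 46 numbered 61 in a second list, of which 49 were tested and 5 rose in the averaged prenatal comparison, where 4.9% of all genes did. The 4 with the smallest p were Ifi204, a DNA-binding HIN-200 protein (log2 0.91 ± 0.20, adjusted p = 0.00865), Shisa5 (0.24 ± 0.06, adjusted p = 0.0152), Ube2l6, the ISG15-conjugating enzyme (0.29 ± 0.08, adjusted p = 0.0387), and Phf11b (1.00 ± 0.31, adjusted p = 0.0475). The median log2 fold change of these 49 was 0.18, and that of the members 0.18, and 0 of the 49 passed in either prenatal comparison within a pubertal injection or in a pubertal comparison.

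The 2 prenatal comparisons share no library, but their mice may share dams, so they need not be independent. Differences between litters could not be tested, as the labels do not name them. Side by side, 32 of 46 members were above 0 in both (69.6%, where 34.4% of all tested genes were), 3 were below 0 in both and 11 had opposite signs. Irf7, Ifi27l2a and Ifi27 passed in both. When each library was left out in turn, Ifi27l2a passed in 15 of 16 fits before pubertal saline, Irf7 in 10 and Ifi27 in 7. Before pubertal LPS Ifi27l2a and Irf7 passed in all 16 and Ifi27 in 4. Without overlap between groups, 9 members were higher and 0 lower before pubertal saline (5.17% and 3.95% of all genes). There were also 9 higher and 0 lower before pubertal LPS (4.96% and 2.98%). Of these members 7 were higher in both: Bst2, Ifi27, Ifi27l2a, Irf7, Lgals3bp, Mx1 and Zbp1. The share of all genes higher without overlap in both was not computed, nor was the share that passed in both. Over the 8 against 8 libraries 5 members were higher and 0 lower (0.747% and 0.159% of all genes): Ifi27l2a, Irf7, Bst2, Ifi27 and Zbp1.

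**Figure D4:**
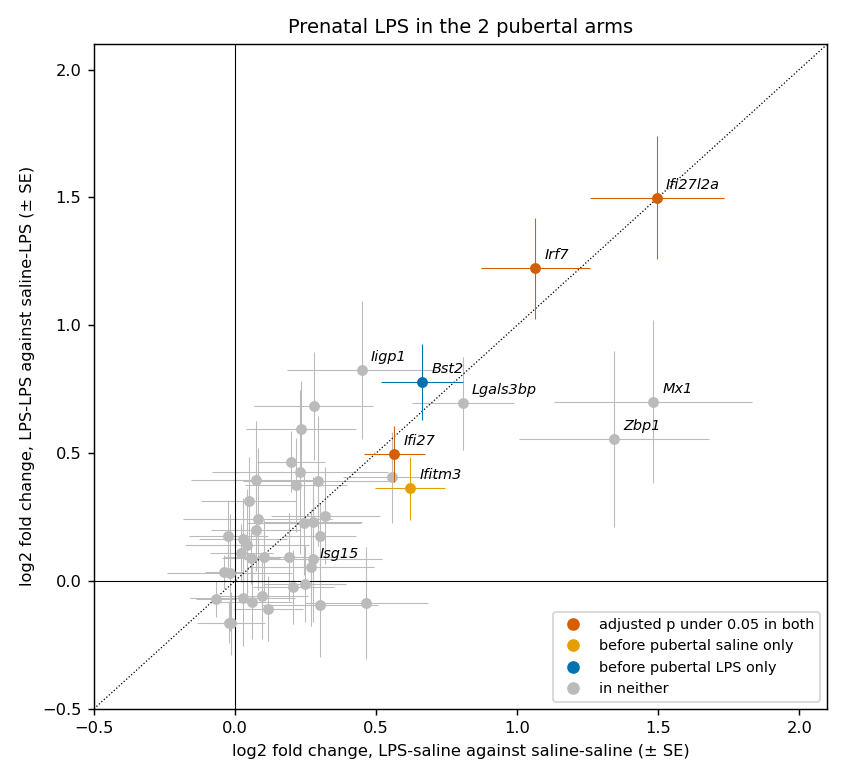
Each point is 1 member, with its log2 fold change after prenatal LPS before pubertal saline on the horizontal axis and before pubertal LPS on the vertical axis, bars ± SE, and colour for the comparison in which it passed. Ifi27l2a and Irf7 lie near the dotted line of equality, Mx1 and Zbp1 lie below it with wide bars, and 32 of the 46 members are above 0 on both axes.

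The labels do not say what their replicate numbers stand for, and libraries of unlike number also deviated together. With the number as a block 8 members rose before pubertal saline (Bst2, Gbp3, Lgals3bp and Mx1 in addition to the 4). There 1.5% of all genes rose, against 0.148% without the block. Before pubertal LPS 7 members rose with the block (Ifit3, Ifitm3 and Lgals3bp in addition). There 1.39% of all genes rose, against 0.562% without it. Without the block, the count before pubertal saline was 0 without saline-saline replicate 4, 1 (Ifi27l2a) without saline-saline replicate 1, 2 or 3 or LPS-saline replicate 1 or 3, 2 (Ifi27l2a and Irf7) without LPS-saline replicate 2, LPS-LPS replicate 2 or LPS-LPS replicate 3, and 8 without saline-LPS replicate 1. Of all genes 0.0366% rose without saline-saline replicate 4 and 1.29% without saline-LPS replicate 1. In the fits where only Ifi27l2a passed this share was 0.0469% to 0.0889%. It was 0.0888% to 0.105% in those where Ifi27l2a and Irf7 passed.

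Before pubertal LPS the count was 2 without LPS-LPS replicate 1 or LPS-LPS replicate 3 (0.162% and 0.115% of all genes rose), and Irf7 and Ifi27l2a passed in both cases. Without both of these libraries, which leaves 2 in LPS-LPS, 0 members passed and 0.0358% of all genes rose. The fitted values then were 1.27 for Ifi27l2a, 1.05 for Irf7, 0.58 for Bst2 and 0.36 for Ifi27 (adjusted p = 0.271, 0.271, 0.543 and 0.684).

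The averaged count of 12 was 7 (2.7% of all genes rose) when LPS-LPS replicate 3 was left out, the sample that carried Xist and was the highest of its group for 23 of 46 members. The 7 were Bst2, Ifi27, Ifi27l2a, Ifitm3, Irf7, Lgals3bp and Mx1, and each of them passed in all 16 fits that left out 1 library. Zbp1 was lost without LPS-saline replicate 3 or LPS-LPS replicate 3, Ifit3 without saline-saline replicate 4, LPS-saline replicate 1 or LPS-LPS replicate 3, and Gbp3 without any of these last 3 or LPS-LPS replicate 1. Iigp1 passed in 7 of the 16 and Gbp2 in 4. Without both LPS-LPS replicates 1 and 3 the count was 6 (0.875% of all genes rose), Ifi27l2a at 1.38, Irf7 at 1.06, Lgals3bp at 0.71, Bst2 at 0.62, Ifi27 at 0.46 and Ifitm3 at 0.44.

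Within the 8 libraries under 1 CPM of Gabra6, 6 members rose with prenatal LPS, and within the other 8 libraries 3 did, where 0.237% and 0.613% of all genes tested in those fits rose. These fits compared the dam's injection alone and left out the pubertal one, and the dam injections were not balanced in them. Under 1 CPM the only libraries of LPS-injected dams were LPS-saline replicates 1 and 2 and LPS-LPS replicate 2. The other class held both LPS-LPS replicates 1 and 3. Ifi27l2a (1.63 and 1.41), Irf7 (1.19 and 1.24) and Bst2 (0.62 and 0.86) passed in both classes of library.

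Pubertal LPS was given on postnatal day 30 and the brains were taken on day 32. After prenatal saline 0 members passed (edgeR), 2 had an unadjusted p under 0.05 (Mx1 and Trim30a; 2.83% of all genes had such a p), and DESeq2 called 0. After prenatal LPS 0 passed, 2 had an unadjusted p under 0.05 (Ifitm2 and Ifit3; 4.01% of all genes), and DESeq2 called 0. Averaged over both, 0 passed, 4 had an unadjusted p under 0.05 (Ifitm2, Mx1, Ifit3 and Usp18), and DESeq2 again called 0, where 5.02% of all genes had such a p. For 38 of 46 members the 95% interval of the averaged pubertal change lay within 0.5 log2 units of 0, and for 45 within 1. Ifi27l2a, with the largest prenatal change, had an averaged pubertal log2 fold change of -0.00 ± 0.17 (95% interval -0.35 to 0.35), and Irf7 had -0.13 ± 0.14 (-0.41 to 0.16).

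Mx1 had the largest averaged pubertal value, 0.62 ± 0.24 (adjusted p = 0.944), from 0.230 ± 0.0968 CPM in saline-saline to 0.473 ± 0.156 CPM in saline-LPS (SD, n = 4), against 0.650 ± 0.104 CPM in LPS-saline and 0.765 ± 0.271 CPM in LPS-LPS. Those group ranges overlapped within both prenatal injections. No member was higher or lower without overlap after prenatal saline (0.853% and 0.689% of all genes) or over the 8 against 8 libraries (0.0053% and 0%), and after prenatal LPS 1 member, Ifitm2, was higher (2.04%). Stat2 was the only member whose libraries lay lower without overlap after pubertal LPS, in LPS-LPS (26.7 to 28.8 CPM) against LPS-saline (29.4 to 31.7 CPM), with log2 -0.15 ± 0.08 (adjusted p = 0.9997). The share of all genes that were lower without overlap in that comparison was 1.69%.

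The interaction, which asks whether the prenatal difference changed with the pubertal injection, was passed by 0 of 46 members and 0% of all genes (edgeR), 0 members had an unadjusted p under 0.05 (2.13% of all genes), and DESeq2 called 0. The interaction was above 0 for 21 members (48.9% of all genes), and Slfn2 had the smallest p (log2 -0.55 ± 0.31, adjusted p = 0.9998). With both injections set against none, 9 members rose and 0 fell (4.27% and 2.29% of all genes), 18 had an unadjusted p under 0.05 (21.9%), and 38 were above 0 (49.9%). Without overlap 13 were higher and 1, Stat2, was lower (9.63% and 7.81%). The 9 that rose were Ifi27l2a (log2 1.49), Ifi27 (0.61), Bst2 (0.78), Irf7 (1.02), Mx1 (1.71), Lgals3bp (0.92), Ifitm2 (0.85), Ifitm3 (0.55) and Ifit3 (0.52), with adjusted p from 0.00236 to 0.0148. Without LPS-LPS replicates 1 and 3 the count of members that rose was 0 (0.0358% of all genes rose), with Ifi27l2a at 1.27, Irf7 at 0.84 and Mx1 at 1.46.

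Per kilobase of exon, Adar (19.6 CPM per kb), Ifitm3 (19.2) and Ifi27 (18.97) were the most abundant members over all 16 libraries, followed by Lgals3bp (8.57), Cmpk2 (6.39) and Bst2 (5.77), and Ifi44 (0.0982), Zbp1 (0.102) and Mx1 (0.14) the least. Members that rose stood at both ends of this order. The exonic length of the 5 members whose 8 against 8 libraries did not overlap was 463 bases for Ifi27l2a, 903 for Bst2, 1467 for Ifi27, 3529 for Zbp1 and 3776 for Irf7. Libraries of LPS-injected dams had a rank correlation of each gene's deviation with its length of -0.267 to -0.0129, and those of saline-injected dams of -0.0542 to 0.189, as a description over genes within each library. The part of this length trend in the members' rises was not tested beyond the correction that follows. After a correction for GC content and exonic length Ifi27l2a (log2 1.42), Irf7 (1.10), Bst2 (0.61), Ifi27 (0.45), Ifitm3 (0.41), Lgals3bp (0.68), Mx1 (1.09), Zbp1 (0.93), Ifit3 (0.30) and Iigp1 (0.68) passed in the averaged comparison, where 2.11% of all genes rose after that correction.

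Levels of marker lists for other cell types are given beside these results. The summed level of 12 microglial markers ranged from 224 to 330 CPM in the 8 libraries of saline-injected dams and from 250 to 306 CPM in the others, and 1 marker, Aif1, rose. Border macrophage and monocyte markers summed to 15.7 to 22.7 against 18.7 to 22.5 CPM (0 of 8 tested called), and endothelial markers to 130 to 275 against 149 to 253 CPM (0 of 8). Meningeal markers summed to 175 to 228 against 186 to 216 CPM, and 2 of 8 rose (Foxc1 and Dcn). Neutrophil markers summed to 1.16 to 4.57 against 2.34 to 6.89 CPM (0 of 5), with Mpo, Elane and Retnlg at 0 in some libraries. Neuronal markers summed to 4660 to 5524 against 5216 to 5473 CPM, and 2 of 6 rose (Syp and Tubb3), and no neuronal or astrocyte marker was at 0 in a library, as the labelled tissue would have. Astrocyte markers summed to 3168 to 3984 (mean 3551) against 3068 to 3408 CPM (mean 3224), and of 6 markers Gfap rose and Slc1a2 fell. Erythroid markers summed to 19.9 to 222 (mean 86.0) against 16.6 to 109.9 CPM (mean 50.7), with a median log2 fold change of -0.61 and 0 of 5 called. The part of any of these cell types in the rises of the members was not tested.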

How the data were processed

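Total RNA of 16 whole brains was sequenced, 1 library per mouse. The deposited values are whole-number read counts per Ensembl gene that the authors obtained after aligning to GRCm38. The submitters' processing notes name STAR 2.5.2b as well as HTSeq 0.11.2. Which strand setting, annotation release or read filters they used was not given in the sources used here. Of each library's reads, 8.37 to 11.0% fell in no gene, 5.11 to 5.48% were ambiguous and 3.18 to 3.90% were not unique, and these entries were left out. Reads carry no molecular identifiers.

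Symbols and coordinates came from GENCODE M21 (49412 genes matched, 259 did not). In R 4.3.3, edgeR 4.0.16 (limma 3.58.1) kept 18875 genes with filterByExpr, scaled with TMM and fitted 4 group means to all 16 libraries. Quasi-likelihood tests were two-sided, with Benjamini-Hochberg adjustment over all 18875 genes and calls at adjusted p under 0.05. Between mice, the fitted biological coefficient of variation came to 10.4%. CPM values are scaled by TMM, and 95% intervals come from the fitted standard errors. The procedure was tested on simulated data.

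Members and lists were chosen with earlier results of these data known. Members that passed in a comparison within 1 arm are given in every library, those that passed otherwise by group values, and the rest by counts, ranges and, per role, the most abundant and the one with the smallest p. Outside the members, Irf1, Ifnar1, Ifnb1 and up to 4 called genes per list are named, and 1 further gene of the rule is not reported here.

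Same-numbered libraries deviated together over 13811 genes in the prenatal comparisons (r 0.160 to 0.619 before pubertal saline, 0.291 to 0.378 before pubertal LPS) and after prenatal LPS (0.201 to 0.361). In the pubertal comparison after prenatal saline (0.0704 to 0.364) and with both injections against none (0.0166 to 0.386) not every pair passed 0.1. Libraries of unlike number also reached r 0.581 (LPS-saline replicate 4 and saline-LPS replicate 3) and 0.528 (saline-saline replicate 2 and saline-LPS replicate 1). For 10 of 16 libraries the library of another group with the highest r had the same number. Alternatives were DESeq2 1.42.0, relative log expression size factors, no filter beyond 10 summed counts, the replicate block, libraries split by Gabra6, a Gabra6 factor, a correction for GC content and exonic length, and leaving out each library. Leaving out both LPS-LPS replicates 1 and 3 was chosen after seeing the data.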

Additional observations from a re-analysis of the deposited data

Results flagged for a closer look

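Within the 4 groups, 13 members that passed in any comparison were searched for a library far from the other 3 (Dixon's gap ratio above 0.829), 52 groups in all, of which chance would mark about 1 in 20. There were 2. Ifi27 in saline-saline replicate 4 was at 20.2 CPM, below the other 3 libraries of its group at 22.3 to 22.7 CPM (gap ratio 0.871). Mx1 in LPS-LPS replicate 3, the library with Xist, was at 1.17 CPM, above the other 3 at 0.603 to 0.659 CPM (gap ratio 0.901).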

How the results depend on the processing

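Refitted values for single members numbered 1604, for all members in the averaged prenatal comparison and elsewhere only for members called in the reported fit. Of these, 1455 stayed on their side of the threshold or moved within their error, and 123 lost the call. Another 26, called in neither fit, moved by more than their error. A change of sign was counted only for values called in either fit, and there were 0. Calls gained by other members outside the averaged comparison could not enter these values. The 4 members called before pubertal saline became 8 with the replicate block, 8 with a Gabra6 factor, 2 with the correction for GC content and exonic length, 8 with that correction and the replicate block together, and 7 with DESeq2. The share of all genes that rose, 0.148% in the reported fit, was 1.5%, 1.29%, 0.122%, 0.334% and 1.49% in these fits. The 4 called before pubertal LPS became 7 with the replicate block, 7 with a Gabra6 factor and 0 without LPS-LPS replicates 1 and 3. There the share of all genes that rose, 0.562% in the reported fit, was 1.39%, 1.5% and 0.0358%. The 12 called on average became 6 within the libraries under 1 CPM of Gabra6 and 3 within the others, both with fewer samples and without the pubertal injection in the fit. They became 6 without LPS-LPS replicates 1 and 3. The share of all genes that rose, 4.9% in the reported fit, was 0.237%, 0.613% and 0.875% in these 3 fits. The 9 called with both injections against none became 0 without LPS-LPS replicates 1 and 3, while the share of all genes that rose went from 4.27% to 0.0358%. With 1 library left out in turn the counts ran from 0 to 8 before pubertal saline, 2 to 4 before pubertal LPS, 7 to 12 on average and 7 to 11 for both injections against none. In the same order, the share of all genes that rose ran from 0.0366% to 1.29%, 0.115% to 0.58%, 2.54% to 5.21% and 1.22% to 5.89%. The 3 pubertal counts and the interaction count were 0 under every alternative run, the replicate block included, and the block moved no other count of calls by more than 1.5 times. Where fewer samples were not the reason, the cause was not tested. Mx1 and Zbp1 rest on 269 and 185 counts in all libraries, so their folds are the least precise of the called members.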
